A study of Mus musculus with 2 samples.

Results

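The matrix metalloproteinase (Mmp) cluster of mouse chromosome 9 holds 10 genes that lie beside each other near the start of the chromosome: Mmp13, Mmp12, Mmp1b, Mmp3, Mmp1a, Mmp10, Mmp8, Mmp27, Mmp20 and Mmp7, in this order. They were taken by name from the GENCODE M21 annotation of GRCm38 and are 10 of 21939 genes tested. Each gene was measured with 10 kb on each side, and the cluster as chr9:7262514-7709585, from 10 kb before Mmp13 to 10 kb after Mmp7. Whole-genome bisulfite sequencing was done on DNA of primary osteoblasts from 3-day-old C57BL/6 mice after 3 days of culture, with 1 wild-type (WT) library and 1 TCKO library. TCKO mice carried floxed alleles of Tet1, Tet2 and Tet3 together with Prx1-Cre. This Cre acts in the early mesenchyme of limbs and part of the skull, so cells from other sources in a culture keep their Tet genes. The alleles of the WT mice are not described in the labels beyond wild type. With 1 library per genotype there is no replicate check: every test and interval below compares these 2 libraries and covers counting error only.

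TET enzymes oxidise 5-methylcytosine at CG sites, which starts its removal. Bisulfite sequencing reads methylated and hydroxymethylated cytosine alike, so a CG methylation level here is the share of calls with either. Matrix metalloproteinases are secreted zinc enzymes that cut collagens and other matrix proteins. The cluster holds collagenases (Mmp13, Mmp8, Mmp1a, Mmp1b), stromelysins (Mmp3, Mmp10), macrophage elastase (Mmp12), matrilysin (Mmp7), enamelysin of the enamel-forming cells (Mmp20) and the less studied Mmp27. Mmp13 is the collagenase that hypertrophic chondrocytes and osteoblasts make. In osteoblastic cells it is known as a target of RUNX2, which acts at its promoter and at enhancers far upstream, and of AP-1 (FOS and JUN proteins).

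Sequences of 3 promoters and 4 bins are shown because the results below refer to them. The first set is the 250 bases before the RefSeq start site of Mmp13 and, for comparison, of Mmp3 and Mmp7 (GRCm38.p6). Capitals mark CG sites, the AP-1 string TGACTCA (reverse TGAGTCA) and the Runt string AACCACA (reverse TGTGGTT), searched on both strands.
Mmp13 promoter, chr9:7272264-7272513, plus strand: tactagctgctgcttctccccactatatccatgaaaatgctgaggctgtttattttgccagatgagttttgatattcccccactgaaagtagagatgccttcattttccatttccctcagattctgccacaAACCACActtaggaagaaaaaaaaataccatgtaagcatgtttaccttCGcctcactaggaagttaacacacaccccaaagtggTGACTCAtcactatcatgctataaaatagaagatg
Mmp3 promoter, chr9:7445572-7445821, plus strand: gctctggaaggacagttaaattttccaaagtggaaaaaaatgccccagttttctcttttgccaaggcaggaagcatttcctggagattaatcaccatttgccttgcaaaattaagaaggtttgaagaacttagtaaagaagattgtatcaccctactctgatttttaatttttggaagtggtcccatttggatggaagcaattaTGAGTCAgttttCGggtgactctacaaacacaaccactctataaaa
Mmp7 promoter, chr9:7691840-7692089, plus strand: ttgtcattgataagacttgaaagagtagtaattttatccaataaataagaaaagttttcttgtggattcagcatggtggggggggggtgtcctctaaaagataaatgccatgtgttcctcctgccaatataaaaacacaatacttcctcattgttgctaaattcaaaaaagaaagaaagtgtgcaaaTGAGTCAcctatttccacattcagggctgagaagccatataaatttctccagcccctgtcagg
The second set is the 3 bins of 200 bp upstream of Mmp13 and 1 bin in an intron of Mmp12 that were called hypermethylated in TCKO, with the same marks.
33.4 kb before Mmp13, chr9:7239001-7239200, plus strand: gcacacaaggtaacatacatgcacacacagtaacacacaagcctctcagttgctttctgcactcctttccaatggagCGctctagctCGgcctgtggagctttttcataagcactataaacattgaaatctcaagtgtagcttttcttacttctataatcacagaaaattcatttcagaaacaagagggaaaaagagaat
21.8 kb before Mmp13, chr9:7250601-7250800, plus strand: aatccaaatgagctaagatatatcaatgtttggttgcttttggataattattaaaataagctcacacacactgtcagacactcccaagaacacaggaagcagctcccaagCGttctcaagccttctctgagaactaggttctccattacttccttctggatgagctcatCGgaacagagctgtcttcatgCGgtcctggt
10.2 kb before Mmp13, chr9:7262201-7262400, plus strand: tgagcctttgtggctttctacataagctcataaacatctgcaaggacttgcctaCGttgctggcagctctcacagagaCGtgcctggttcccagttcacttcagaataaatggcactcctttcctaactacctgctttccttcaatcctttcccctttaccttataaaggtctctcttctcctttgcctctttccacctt
Mmp12 intron 6, chr9:7354601-7354800, plus strand: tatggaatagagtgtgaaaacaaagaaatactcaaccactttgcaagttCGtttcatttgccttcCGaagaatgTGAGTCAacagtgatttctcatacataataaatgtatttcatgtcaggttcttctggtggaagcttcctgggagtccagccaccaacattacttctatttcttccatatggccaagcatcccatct

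The libraries held 261127589 calls in WT and 223645082 in TCKO, a mean of 5.97 and 5.11 for each CG cytosine in the reference. In stretches chosen for their loss of depth, Tet1 had 755 calls in WT and 70 in TCKO, Tet2 122 and 13, and Tet3 133 and 9, so the library labelled TCKO lacked most reads there. Promoter methylation (2 kb on each side of the start site) in WT was 3.38% at Col1a1, 3.70% at Col1a2, 16.3% at Runx2 and 24.1% at Sp7, but 55.6% at Alpl, 60.8% at Ibsp and 76.8% at Bglap, all genes of osteoblasts. It was 66.1% to 78.9% over 4 blood genes (Ptprc, Cd3e, Itgam, Csf1r) and 65.8% to 77.6% over the endothelial Pecam1 and Cdh5, and 34.1% and 45.0% at the muscle genes Myod1 and Acta1. Methylation does not count cells, and how many other cells the cultures held was not tested.

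Across the whole cluster the CG methylation level was 73.2% in WT, from 41435 calls (95% Wilson interval 72.8 to 73.6). In TCKO it was 79.0%, from 36436 calls (78.6 to 79.4). TCKO was higher by 5.81 percentage points, with a 95% Newcombe interval of 5.21 to 6.40. The rise was no larger than that of the chromosome around it. Chromosome 9 went from 70.8% to 77.4%, a difference of 6.61 points, and the nuclear genome from 70.2% to 76.3%. Of 1215 windows of 100 kb on chromosome 9, 36.5% had a smaller difference than the cluster, and 67.9% had a lower WT level. The cluster has 7.01 CG sites per kb against 8.84 for the chromosome, and 33.7% of these windows had fewer. In the map of 5 kb windows, 75 of 89 windows were higher in TCKO, with differences from -3.68 to 22.5 points. The first 100 kb, which hold Mmp13 and most of Mmp12, rose by 5.03 points (3.72 to 6.34). The last 47.1 kb, with the end of Mmp20 and all of Mmp7, rose by 9.08 points (7.08 to 11.1).

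**Figure D1:**
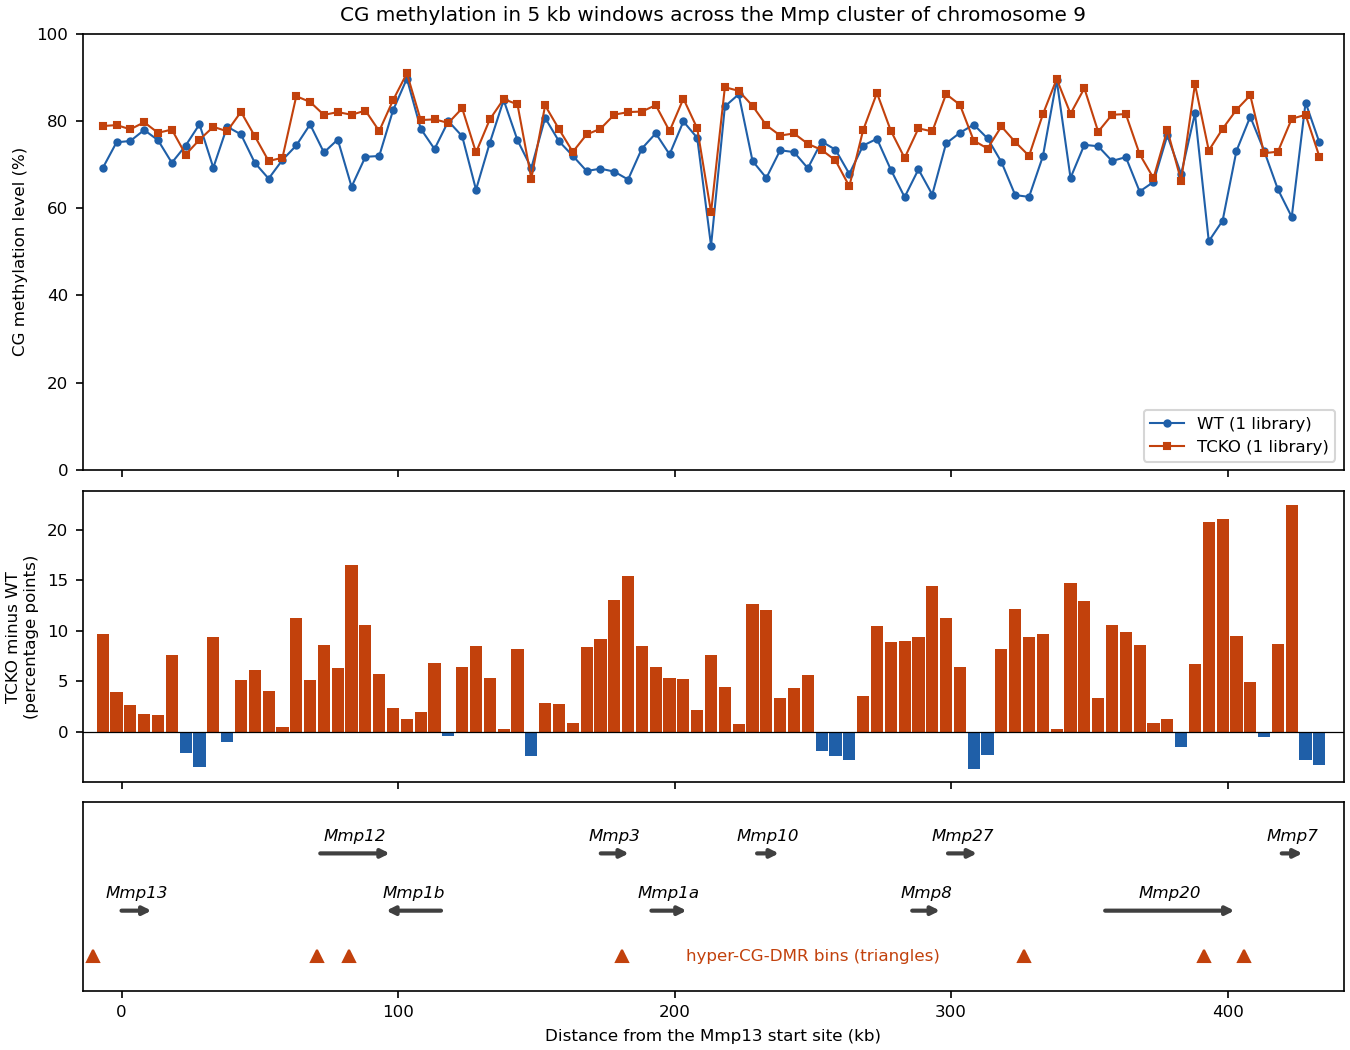
The x axis gives the distance from the Mmp13 start site in kb; the upper panel plots the CG methylation level (%) of 5 kb windows in WT (circles) and TCKO (squares), 1 library each, the middle panel TCKO minus WT in percentage points, and the lower panel the 10 genes as arrows in the direction of transcription, with the hyper-CG-DMR bins as triangles (the leftmost, 10.2 kb before Mmp13, lies just outside the cluster). TCKO lies above WT in 75 of 89 windows, and the steepest gains sit over the end of Mmp20 and over Mmp7.

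All 10 gene windows were higher in TCKO by Fisher's exact test with Benjamini-Hochberg adjustment over all genes. This reads against a background in which 78.5% of the 21939 gene windows were called higher. Levels ran from 67.9% to 77.8% in WT and rose by 3.81 to 10.3 points, with a median of 6.37 over the members beside 5.81 over all genes. Windows of neighbours overlap for Mmp12 and Mmp1b, Mmp3 and Mmp1a, Mmp8 and Mmp27, and Mmp20 and Mmp7, so these pairs share calls.

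Among the collagenases, Mmp13 had a level of 74.7% in WT (3193 calls) and 78.5% in TCKO (2768 calls). Its difference of 3.81 points (1.66 to 5.95, adjusted p = 0.000766, Fisher's exact test) was the smallest of the 10. Mmp8, the collagenase of neutrophils, stood at the other end. It had the lowest WT level, 67.9%, and reached 78.1% in TCKO, a difference of 10.3 points (7.82 to 12.7). The next lowest WT level, that of Mmp3, was 1.60 points above it, with an interval that held 0 (-0.875 to 4.08). Mmp1a and Mmp1b are the rodent counterparts of interstitial collagenase, and the annotation lists Mmp1a as a polymorphic pseudogene. Mmp1a went from 73.5% to 79.0%, and Mmp1b from 77.8%, the highest WT level, to 82.2%. In the Mmp1b window 77.5% of the CG cytosines had a call in WT, against 94.4% in the Mmp13 window.

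The stromelysins cut many matrix proteins and activate other metalloproteinases. Mmp3 rose from 69.5% to 79.4%, by 9.97 points (7.58 to 12.3), and Mmp10 from 74.5% to 81.1%, by 6.60 points (4.60 to 8.58). Mmp12 rose from 75.9% to 83.4%, Mmp20 from 71.3% to 78.9%, Mmp27 from 72.0% to 78.0% and Mmp7 from 70.6% to 76.8%. In the order of the differences (Mmp8, Mmp3, Mmp20, Mmp12, Mmp10, Mmp7, Mmp27, Mmp1a, Mmp1b, Mmp13) no gene was apart from the next one, since each interval of the difference between neighbours in the order held 0.

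**Figure D2:**
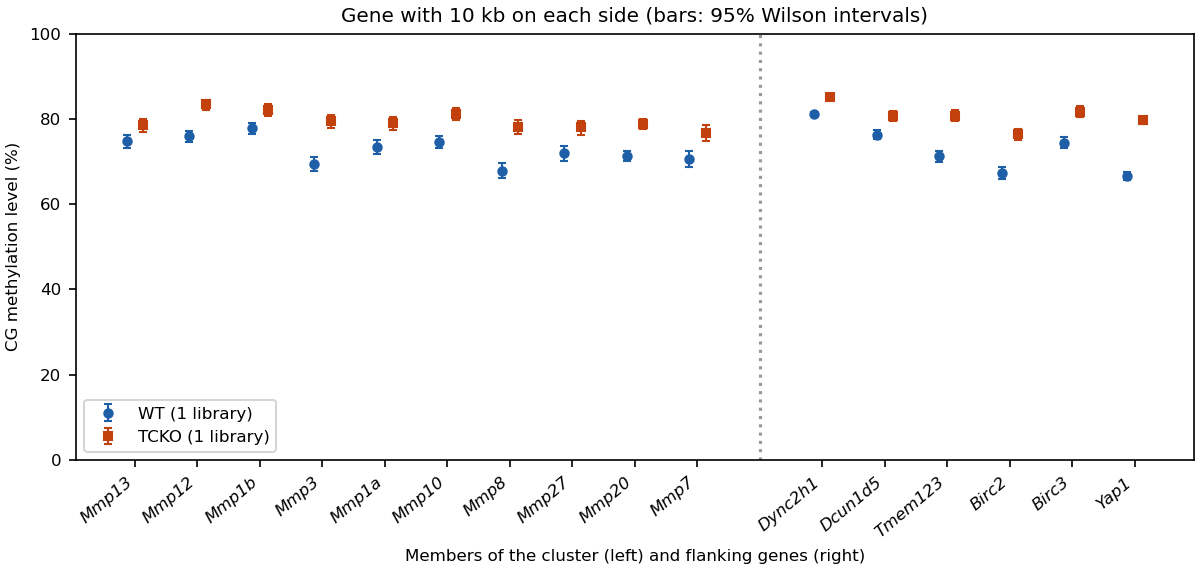
The y axis gives the CG methylation level (%) of each gene with 10 kb on each side in WT (circles) and TCKO (squares), 1 library each, with 95% Wilson intervals, for the 10 members and 6 flanking genes. TCKO is the higher library at every gene, and WT levels of the members lie between 67.9% and 77.8%.

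Mmp13 was then set against its neighbours, because it is the member with a known part in bone. The other 9 member windows together went from 72.5% to 79.5%, a difference of 6.95 points (6.19 to 7.70). The Mmp13 difference minus theirs was -3.13 points (-5.41 to -0.861), and on the minus strand alone -2.48 points, with an interval that held 0 (-5.46 to 0.476). In WT, Mmp13 was 2.22 points above the others (0.589 to 3.79), and in TCKO the interval for the same contrast held 0 (-2.57 to 0.668). Taken singly, 4 of the 9 members had a larger difference than Mmp13 with an interval without 0: Mmp12, Mmp3, Mmp8 and Mmp20. The interval held 0 for Mmp1b, Mmp1a, Mmp10, Mmp27 and Mmp7, which does not show that these rose like Mmp13. Of the flanking genes, Dync2h1 and Dcun1d5, on the Mmp13 side, rose by 4.09 and 4.44 points, and their intervals against Mmp13 held 0. On the Mmp7 side, Tmem123, Birc2, Birc3 and Yap1 rose by 9.59, 9.02, 7.31 and 13.1 points, each more than Mmp13. The Mmp13 call depends on the strand and the flank: on the plus strand alone the difference was 2.32 points (adjusted p = 0.244), and with 5 kb on each side it was 2.24 points (adjusted p = 0.0935, both by Fisher's exact test).

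Levels within the genes were more uneven than the windows show. Mmp7 encodes an enzyme that lacks the hemopexin domain of most family members. Its gene body went from 64.0% (630 calls) to 81.3% (524 calls), by 17.3 points (12.2 to 22.3). The 10 kb before it rose by 3.89 points and the 10 kb after it by 0.615, both with intervals that held 0. Body minus flanks was 15.0 points for Mmp7 (9.13 to 20.8). Of the other genes, this contrast had an interval without 0 for Mmp10 only, at 5.24 points (0.771 to 9.64). These contrasts were chosen after the values were seen.

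The exons of Mmp10 rose by 17.7 points, from 61.8% to 79.5%, and its introns by 7.59 points, from 73.0% to 80.6%. The body of Mmp3 rose by 12.8 points (8.84 to 16.7), and all parts of Mmp8 rose by similar amounts, 9.20 points before the gene, 11.6 in it and 9.37 after it. The body of Mmp13 was among the least changed, with 77.5% in WT and 80.4% in TCKO (2.91 points, -0.206 to 5.99). Mmp1b had 3.14 points in its body (0.533 to 5.72).

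**Figure D3:**
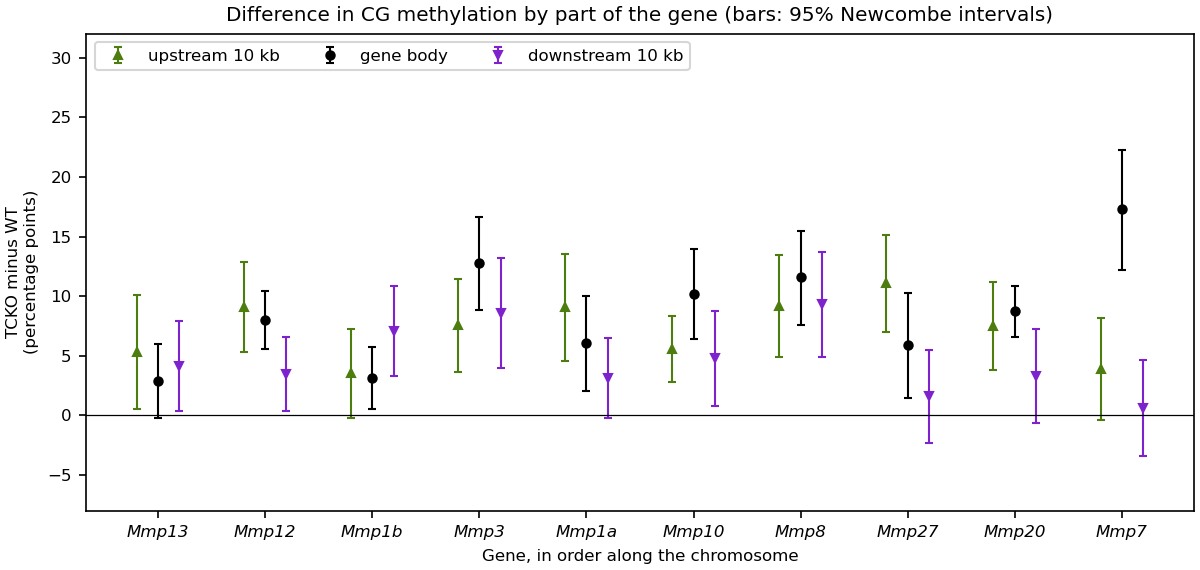
The y axis gives TCKO minus WT in percentage points of CG methylation for the 10 kb upstream (triangles up), the gene body (circles) and the 10 kb downstream (triangles down) of each member, with 95% Newcombe intervals, 1 library per genotype. The body of Mmp7, at 17.3 points, stands above its flanks, and the body of Mmp13 has an interval that reaches 0.

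The promoters of the members were methylated in both libraries. Over 2 kb on each side of the start site the WT level was 68.5% to 79.8%, against a median of 45.0% over all promoters, and they held 4.75 to 8.75 CG sites per kb against a median of 21.7. The 6 flanking genes, whose promoters are richer in CG sites, had 15.1% to 36.9% in WT, Dync2h1 and Dcun1d5 sharing 1 start region. Of the member promoters, 5 of 10 were called higher in TCKO, beside 37.8% of all promoters. They were Mmp27 (70.4% to 84.6%, adjusted p = 0.00135), Mmp10 (71.2% to 83.0%, adjusted p = 0.00081), Mmp8 (69.0% to 79.7%, adjusted p = 0.00146), Mmp7 (68.5% to 78.2%, adjusted p = 0.0116) and Mmp3 (74.3% to 82.4%, adjusted p = 0.00579), all by Fisher's exact test. Mmp1a had 77.2% in WT and 86.6% in TCKO with an adjusted p of 0.0598 by the same exact test, and Mmp12 an adjusted p of 0.0717. At Mmp13 the levels were 76.2% and 80.5%, with a difference of 4.33 points whose interval held 0 (-2.14 to 10.6). The 5 calls depend on the window. Over 1 kb before to 100 bases after the start site, where Mmp1a has 0 CG sites and Mmp1b has 1, none of the 5 passed the test, with differences of 17.6 points at Mmp10, 13.7 at Mmp8, 13.3 at Mmp27, 7.27 at Mmp3 and -0.216 at Mmp7 from 59 to 164 calls per library. Over the 2 kb before the start site Mmp10 and Mmp8 passed and Mmp27, Mmp3 and Mmp7 did not.

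**Figure D4:**
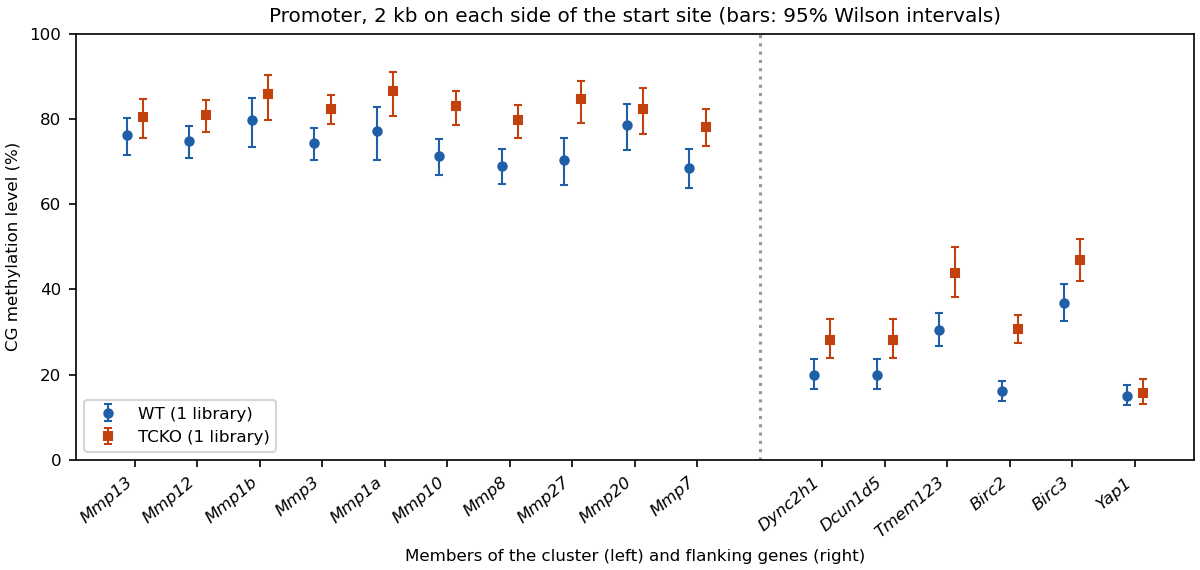
The y axis gives the CG methylation level (%) within 2 kb on each side of the start site in WT (circles) and TCKO (squares), 1 library each, with 95% Wilson intervals. The 10 member promoters lie between 68.5% and 79.8% in WT, and the 6 flanking promoters between 15.1% and 36.9%.

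Close to the start sites the sequences and the methylation were read together. For each member the RefSeq start nearest to the GENCODE start was used. The AP-1 string lies 35 to 93 bases before the RefSeq start of 7 of the 10 members (Mmp13, Mmp12, Mmp1b, Mmp3, Mmp1a, Mmp10 and Mmp7), and in 5.20% of the 32851 RefSeq promoters of 300 bases. The Runt string is in 2 member promoters, Mmp13 and Mmp27, and in 5.27% of all. Mmp13 is the member with both, which 0.301% of all promoters have. A string is a description of the letters and not a bound site. In the Mmp13 sequence printed above, the Runt string starts 119 bases and the AP-1 string 35 bases before the start site, and the single CG site of the 300 bases lies between them, 71 bases before it.

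That CG site (cytosine at chr9:7272443) had 0 methylated of 9 calls in WT, which allows a level of up to 33.3% (3 of 9), and 2 of 5 in TCKO. The 1 CG site of the Mmp3 promoter, which follows the AP-1 string, had 3 of 9 calls methylated in WT and 8 of 10 in TCKO. The 1 CG site of the Mmp7 promoter window lies 27 bases after the start, outside the printed sequence, and had 5 of 9 and 6 of 7. Of the 7 member promoters of 300 bases with a CG site, all 7 had the higher value in TCKO, by 4.90 to 46.7 points, beside 45.3% of all such promoters. These values pool the sites of a promoter, and single sites could fall. At Mmp10 the CG site at chr9:7502305 had 3 of 15 calls methylated in WT and 0 of 3 in TCKO, and that at chr9:7502368 had 6 of 10 and 4 of 4. A single site also fell at Mmp12 and at Mmp8. The 7 held at most 4 CG sites, beside a median of 7 over the 32851 promoters. Their WT levels ran from 0% to 83.3%, beside a median of 15% over all, and promoters alike in both were not compared. After adjustment over 29928 promoters, of which 3.75% were called, 0 of the 7 passed Fisher's exact test. None of the 7 had an unadjusted p under 0.05, and the smallest, at Mmp3, was 0.0698 by the exact test. A later RefSeq start of Mmp7, farther from the GENCODE start and not among the 7, had 18 of 32 calls methylated in WT and 41 of 47 in TCKO over its 300 bases (adjusted p = 0.0758, exact test), and its window holds the Runt string. The single sites of Mmp13, Mmp3 and Mmp7 rest on 5 to 10 calls per library, so their differences have wide intervals, such as 40 points at Mmp13 (-1.14 to 76.9). The Mmp12 promoter holds 3 CG sites, with 72 calls in WT and 51 in TCKO, and differed by 4.90 points (-8.59 to 16.9).

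Of 204 CG sites within 2 kb of a member start and with at least 5 calls in each library, 6 were at or below 25% in WT. These 6 were picked by the WT value that enters the difference, so no conclusion is drawn from their values in TCKO. Beside the Mmp13 site they lay near Mmp12 (2 of 12 calls in WT and 7 of 10 in TCKO), Mmp3 (1 of 5 and 5 of 6), Mmp10 (1 of 13 and 2 of 5) and Mmp7, which had a pair of them. The Mmp7 pair stayed low in TCKO: 852 bases before the start 0 of 16 calls were methylated in WT and 0 of 13 in TCKO, and 1984 bases before it 2 of 15 and 0 of 13. A count of 0 among 13 calls allows a level of up to 23.1%, and among 16 calls of up to 18.8%.

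Differentially methylated bins (CG-DMRs) were called in 200 bp bins. A bin needed 4 or more CG cytosines and, in each library, 4 or more calls per cytosine on average. It was called where the libraries differed by more than 40 points with an adjusted p below 0.05 by Fisher's exact test. In the cluster 428 of 2236 bins could be tested. Of these, 6 were hyper-CG-DMR bins, or 1.40%, beside 2.86% of the 2534696 testable bins of the genome, and 0 were hypo-CG-DMR bins, beside 0.035% of the genome. At an unadjusted p below 0.05 the counts were also 6 and 0. Of the 428 bins 294 were higher and 132 lower in TCKO, so 68.7% were higher, beside 68.1% of the testable bins of the genome. A bin above 60% in WT cannot rise by more than 40 points. Of the testable bins, 38 of the 428 were under 50% in WT, or 8.88%, beside 12.2% of the testable bins of the genome. Of these 38, 32 were higher in TCKO, and the 6 called bins were among the 38. The 38 were picked by the WT value that enters the difference. The share of such bins that were higher was not taken for the genome, so nothing is concluded from the 32. The called share of these 38 was 15.8%, beside 22.4% of such bins in the genome. Their median difference was 25 points, beside 21.7 points in the genome. The bins nearest below the 40 point limit were 1 in an intron of Mmp3 (42.9% to 81.0%) and 1 in Mmp8 (62.5% to 100%). No called bin lay within 2 kb of the GENCODE principal start site of a member. The called bin before Mmp12, given below, lay within 2 kb of an earlier RefSeq start of that gene.

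The 6 called bins were spread over the cluster. The largest difference, 70.9 points, was in intron 6 of Mmp12 (chr9:7354601-7354800), with 6 of 30 calls methylated in WT and 20 of 22 in TCKO. Its 2 CG sites went from 13.3% to 81.8% and from 26.7% to 100%, and the sequence printed above holds the reversed AP-1 string close behind the second. A bin 13.8 kb before the Mmp7 start, in intron 1 of the antisense transcript AV064505 (chr9:7678201-7678400), had 3 of 21 and 15 of 19 calls methylated. In intron 8 of Mmp20 (chr9:7663801-7664000) the counts were 7 of 42 and 20 of 30.

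A bin 4.07 kb before the principal Mmp12 start (chr9:7343201-7343400) went from 27.6% to 75.0%. The promoter window of the earlier RefSeq start of Mmp12, chr9:7344147-7344446, lies closer to it. An intergenic bin 27.5 kb after the Mmp27 start (chr9:7598801-7599000) went from 31.9% to 78.0%. The bin in intron 8 of Mmp3 (chr9:7453401-7453600) was the weakest, with 2 of 29 and 8 of 17 calls and an adjusted p of 0.0411 by the exact test. There 1 of 2 CG sites changed, from 1 of 16 to 7 of 9 calls, while the other had 1 of 13 and 1 of 8. This bin also holds the Runt string. The other called bins of the cluster, apart from the Mmp12 intron bin, hold neither string. Among the testable bins of chromosome 9 the AP-1 string is in 3.09% and the Runt string in 4.98%, and among its 3670 hyper-CG-DMR bins in 8.45% and 9.46%. These sets were not matched on the WT level, which the call limits, and the difference in share was not tested.

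The Mmp13 window held 32 testable bins and 0 called ones. Its lowest bin in WT, in intron 7, went from 16.0% (25 calls) to 29.2% (24 calls), and a bin 2.41 kb before the start site had 5 of 20 calls methylated in WT and 9 of 18 in TCKO. Neither difference passed the test. A bin at exon 2 went from 70.7% to 93.2% (adjusted p = 0.105, exact test). The 1 bin of the window that passed the test with a difference over 20 points lay 7.41 kb before the start and went from 73.2% to 98.1% (adjusted p = 0.00552, exact test).

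Further upstream there were called bins. Between the end of Dcun1d5 and the start of Mmp13 lie 64.3 kb without another protein-coding gene, in which 59 bins could be tested and 3 were hyper-CG-DMR bins, or 5.08%, beside 2.86% of the genome. With so few bins, neither the 3 here nor the 0 of 32 in the Mmp13 window was tested against that share. The nearest (chr9:7262201-7262400) lies 10.2 kb before the Mmp13 start, its last base 114 bases outside the window. It had the deepest coverage of the called bins. In WT 15 of 83 calls were methylated (18.1%) and in TCKO 47 of 75 (62.7%, adjusted p = 8.87e-07, exact test). Its 2 CG sites were at 5.41% and 28.3% in WT and at 55.6% and 69.2% in TCKO.

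The second bin, 21.8 kb before the start (chr9:7250601-7250800), was the lowest of the span in WT, with 4 of 58 calls methylated, against 19 of 30 in TCKO (adjusted p = 2.6e-06, exact test). Its 3 CG sites moved alike, from 11.8%, 5.00% and 4.76% to 62.5%, 63.6% and 63.6%. The bin 33.4 kb before the start (chr9:7239001-7239200) went from 53.3% to 95.6% (adjusted p = 0.000716, exact test). The bin next to it, 33.2 kb before the start, went from 31.6% to 69.7%, a difference of 38.1 points just under the limit (adjusted p = 0.0174, exact test). Neither the AP-1 nor the Runt string is in the 3 sequences.

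The whole span from Dcun1d5 to Mmp13 rose from 76.0% to 83.5%, by 7.50 points (5.94 to 9.05). Mmp13 with the 10 kb after it rose by 3.44 points (1.04 to 5.82). The span exceeded it by 4.06 points (1.21 to 6.92), and without the 3 called bins by 2.62 points, with an interval that held 0 (-0.225 to 5.48). This contrast was added after the values were seen, and the called bins are part of the values that prompted it.

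**Figure D5:**
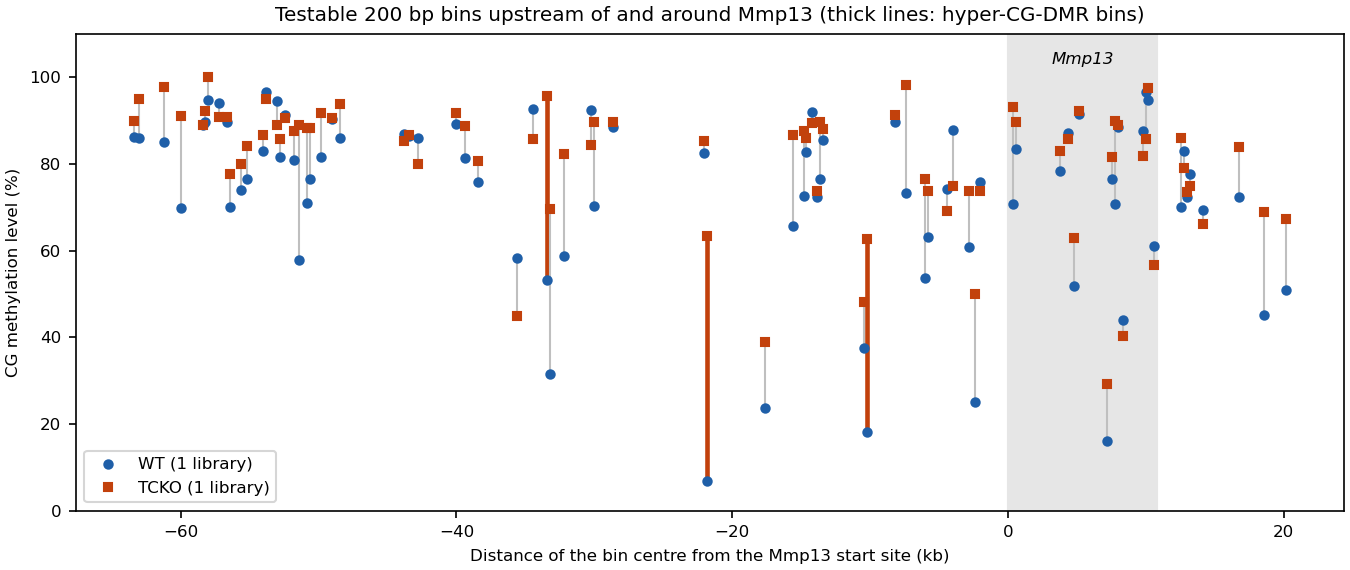
The x axis gives the distance of each testable 200 bp bin from the Mmp13 start site in kb and the y axis its CG methylation level (%) in WT (circles) and TCKO (squares), 1 library each; a line joins both values of a bin, thick for hyper-CG-DMR bins, and grey shading marks the gene. The 3 called bins lie 33.4, 21.8 and 10.2 kb before the start, and the lowest bin inside the gene went from 16.0% to 29.2%.

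Beyond the other end of the cluster, between Mmp7 and Tmem123, 51 bins could be tested and 2 were called, or 3.92%, beside the same 2.86%. At 42.4 kb after the Mmp7 start (chr9:7734401-7734600) the level went from 7.89% to 96.0%, with 3 of 38 calls methylated in WT and 48 of 50 in TCKO. Of all testable bins of the genome 0.0143% had a larger difference. In the bin at chr9:7749001-7749200, which holds the reversed Runt string, the level went from 28.9% to 81.2%.

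Mmp genes that lie elsewhere in the genome, and the inhibitors of the family, were measured beside the cluster. Of 13 such Mmp genes 12 had a gene window called higher in TCKO, beside 78.5% of all gene windows, with a median difference of 5.90 points. Their promoters had a median WT level of 29.1%, and 1 of 13 was called higher, beside 37.8% of all promoters. That one was Mmp2, the gelatinase of connective tissue cells, which went from 33.0% to 61.8%. Mmp9, the gelatinase of osteoclasts and leukocytes, had 29.1% and 31.8%, and Mmp14, a membrane-bound collagenase, 7.15% and 9.91%, without passing the test. Of the inhibitors (Timp1 to Timp4 and Reck), all 5 gene windows were called higher, with a median of 11.0 points, and 2 of 5 promoters, against these same shares, Timp1 (25.7% to 54.8%) and Timp2 (37.4% to 56.8%). Timp1 lies on the X chromosome, and the sex of the mice is not in the labels. Timp3, Timp4 and Reck differed by -0.0277, 7.04 and 3.26 points, which did not pass the test.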

How the data were processed

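Whole-genome bisulfite sequencing of 1 WT and 1 TCKO library was analysed. The authors used BSMAP 2.74 with the GRCm38 genome and uniquely aligned reads. Their deposited files give raw counts for every CG cytosine of either strand, methylated calls beside the total. The deposited counts came with no statement on duplicate reads, and calls on one read are not independent. RNA-seq, ATAC-seq and hydroxymethylation data were not analysed here.

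A level was the sum of methylated calls of a region divided by the sum of its calls, with 95% Wilson, Newcombe and, for differences of differences, MOVER intervals. Regions were compared with 2-sided Fisher exact tests and Benjamini-Hochberg adjustment over all testable bins, all protein-coding genes (with Mmp1a) or all promoters. Start sites were those of the GENCODE M21 principal transcript, while motif distances and promoter sequences used those of RefSeq (all 10 members matched by symbol), which are not at the same base for every member. Named bins were those called near Mmp13 and those with the largest differences in the cluster. Those between Mmp7 and Tmem123, the bins below the limits and the single CG sites were named after their values were seen. The members and lists were chosen with earlier results of these data known. 1 further blood marker gene is not reported here. The code was tested on simulated data. Python 3.11.15, numpy 2.4.6, scipy 1.17.1, pandas 2.3.3, numba 0.67.0 and matplotlib 3.10.9 were used.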

Additional observations from a re-analysis of the deposited data

How the results depend on the processing

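The level of the cluster in both libraries and its difference kept their direction and stayed within the reported intervals with the mean over single cytosines, either strand alone, cytosines of at most 30 calls and cytosines covered in both libraries. All 10 member windows stayed higher in TCKO under these and with flanks of 5 and 20 kb. Mmp13 was the member with the smallest difference in all of these settings but the mean over single cytosines, where it was Mmp1b. The Mmp13 difference did not pass the test on the plus strand (2.32 points) or with 5 kb flanks (2.24 points), and its contrast with the other members was -2.48 points (-5.46 to 0.476) on the minus strand. The cause of these changes was not tested.

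The count of 6 hyper-CG-DMR bins in the cluster was 11 with a mean of at least 1 call per cytosine (1.68% of testable bins, beside 2.57% of the genome), 0 of 121 with at least 10 calls (genome 1.91%), 15 with a difference over 20 points (3.50%, genome 6.12%), 2 with over 60 points (0.467%, genome 0.717%) and 1 of 77 with at least 8 CG cytosines (genome 3.23%). It was 6 with bins shifted by 100 bp. In the Mmp13 window it was 1 of 32 with a difference over 20 points. The hypo-CG-DMR count was 0 in all 7 settings. With the promoter taken from 1 kb before to 100 bases after the start site, none of the 5 promoter calls passed the test. Mmp7 turned to -0.216 points, and the others were 7.27 to 17.6 points on fewer calls. With 2 kb upstream only, Mmp10 and Mmp8 still passed, Mmp12 passed (9.56 points), and Mmp3, Mmp27 and Mmp7 did not. No paired analysis was possible because there is 1 library per genotype. Bins need at least 2 CG sites at moderate depth, so 80.9% of the bins of the cluster, the regions poorest in CG sites among them, gave no test.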
